A study of Homo sapiens with 6 samples.

Results

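Goblet cells are the mucus-secreting cells of the intestinal epithelium, and the 10 genes described here are MUC2, MUC5AC, MUC13, SPDEF, ATOH1, TFF1, TFF2, TFF3, AGR2 and FCGBP. They were chosen by name as genes of goblet cell fate, mucins and mucus proteins, out of 18701 genes with a value on the arrays. Earlier results of these data were known when they were chosen. A gene's value on an array was the median log2 signal of the probe sets that list that symbol alone. By this rule 9 of the 10 had a value. All 53 probe sets that list MUC5AC also list its neighbour MUC5B, so no value is given for MUC5AC. The 9 measured genes also passed the filter on dim genes, a mean over all arrays of at least 3.62, and were among the 14026 genes tested.

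The samples were HT29-tsp53 cells, the human colorectal adenocarcinoma line HT-29 expressing a mouse p53 transgene with the V135A change, a temperature-sensitive form that is switched on by moving the cells to 32 °C. There were 3 groups of 2 arrays, and every group carried the transgene. Control cells were kept at the restrictive temperature (p53 off), given as 38 °C by the sample labels, while the protocol names a 37 °C incubator. P53 on cells had been moved to 32 °C for 16 h. P53 on then off cells were given 6 h of recovery after those 16 h, for which 1 label field names 32 °C while the others give a return to the restrictive temperature. Cells without the transgene are not analysed here, so active p53 and the lower temperature cannot be told apart. The labels number the samples as experiment 1 and experiment 2, each with 1 array per group, and nothing says how separate the cultures were, so p-values measure the spread between these samples.

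Mucus is built from very large secreted mucins, chiefly MUC2 in the intestine, whose long repeat regions are decorated with O-linked sugars and which polymerise inside goblet cells before release. The transcription factor ATOH1 opens the secretory cell fate where Notch signalling is low, and SPDEF acts later to mature goblet cells. Trefoil factors, the disulphide isomerase AGR2 and the mucus protein FCGBP are made or released with the mucins. HT-29 is an epithelial cancer line in which such genes can be expressed without the cells being goblet cells.

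Of the 9 measured genes, MUC2 rose and SPDEF fell in p53 on. In recovery both lay nearer to control, a step that was not called in this fit. The other 7 were not called in p53 on against p53 off. A gene was called when limma's adjusted p over all genes tested was under 0.05. The 2 calls among 9 genes stand beside 1.48% of all genes tested in that comparison. The 9 genes were chosen with earlier results of these data known, so such shares are not a test of the list. In a second fit the experiment number entered as a replicate block, which removes the level difference between the experiments. There AGR2 was called too, giving 3 of 9 against 11.5% of all genes. At an unadjusted p under 0.05 the count was again 2, where 15.4% of all genes passed. As a check of the labels, the p53 target CDKN1A, which encodes the cell cycle inhibitor p21, was 3.21 ± 0.22 log2 units higher in p53 on (standard error, n = 2 arrays per group, adjusted p = 0.00334) and differed from control by -0.06 after recovery. The 2 control and 2 recovery values lay between 4.78 and 4.99, and those of p53 on were 8.32 and 7.91.

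**Figure D1:**
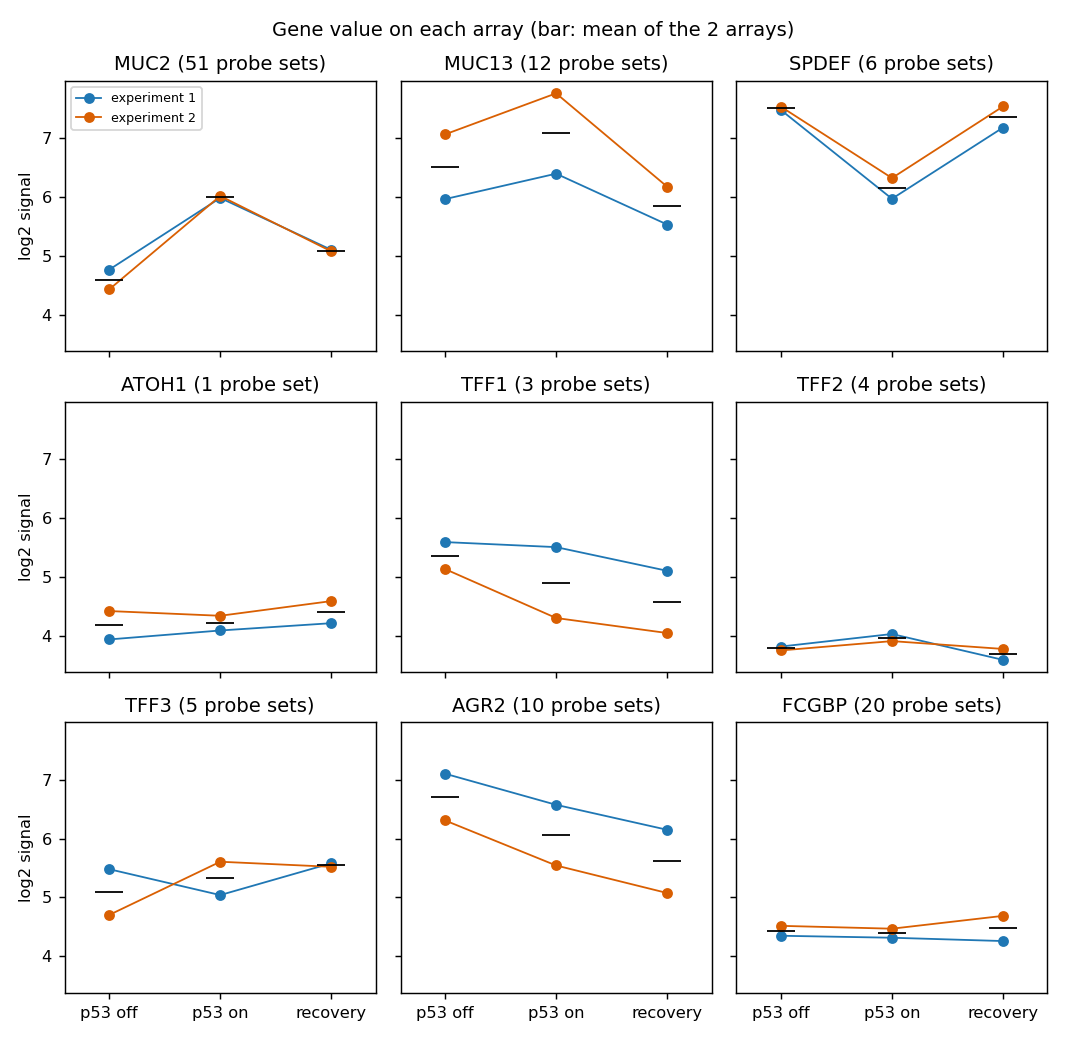
Log2 signal of the 9 measured genes on each of the 6 arrays, by group on the horizontal axis, with experiment 1 and experiment 2 as coloured lines and the mean of the 2 arrays as a black bar. MUC2 peaks and SPDEF dips in p53 on in both experiments, while MUC13, AGR2 and TFF1 keep a gap between the experiments in every group.

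The upstream sequences of the 4 genes called in at least 1 fit are printed to show what lies before the start of genes that moved in different directions. Each is the 250 bases before the RefSeq gene start in GRCh38.p14, read 5′ to 3′ on the gene's strand, and capitals mark the E-box letters CANNTG, the core read by basic helix-loop-helix factors such as ATOH1. MUC2 lies at chr11:1074624-1074873 on the plus strand, SPDEF at chr6:34556330-34556579, MUC13 at chr3:124934752-124935001 and AGR2 at chr7:16805000-16805249, these 3 on the minus strand.
MUC2: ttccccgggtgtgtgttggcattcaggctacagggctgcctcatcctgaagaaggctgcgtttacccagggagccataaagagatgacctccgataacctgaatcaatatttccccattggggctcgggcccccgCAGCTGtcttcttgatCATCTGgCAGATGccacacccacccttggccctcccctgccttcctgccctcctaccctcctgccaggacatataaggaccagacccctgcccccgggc
SPDEF: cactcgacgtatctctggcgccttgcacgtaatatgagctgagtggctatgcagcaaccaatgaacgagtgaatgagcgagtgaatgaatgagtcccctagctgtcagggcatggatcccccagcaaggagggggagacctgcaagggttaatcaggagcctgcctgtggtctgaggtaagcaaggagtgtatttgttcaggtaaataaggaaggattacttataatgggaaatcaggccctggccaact
MUC13: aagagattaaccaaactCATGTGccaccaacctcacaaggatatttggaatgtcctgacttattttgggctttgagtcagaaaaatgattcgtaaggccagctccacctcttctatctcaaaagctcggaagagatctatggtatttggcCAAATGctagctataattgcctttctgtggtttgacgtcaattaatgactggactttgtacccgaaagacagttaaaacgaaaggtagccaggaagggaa
AGR2: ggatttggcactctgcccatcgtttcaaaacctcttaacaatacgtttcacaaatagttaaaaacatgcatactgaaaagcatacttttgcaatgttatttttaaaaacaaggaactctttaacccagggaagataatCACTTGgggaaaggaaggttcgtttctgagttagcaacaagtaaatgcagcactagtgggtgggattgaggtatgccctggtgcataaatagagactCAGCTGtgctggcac
The MUC2 window holds 3 E-box matches, starting at positions -115, -99 and -92 from the gene start, MUC13 and AGR2 hold 2 each, and SPDEF holds 0. Such a match is common, found in 61.8% of 35116 windows of the same length, and the letters read the same on both strands. The letters GGAT, the core that SPDEF prefers, were searched on both strands and occur 1 time in the MUC2 and MUC13 windows, 2 times in AGR2 and 3 times in SPDEF itself, with 70.7% of all windows holding at least 1. The p53 half-site consensus has no match in these 4 windows or in those of ATOH1 and FCGBP, and 5.57% of all windows hold one. No match says only that those letters are not in this window. Sequences were matched for 6 of the 10 genes.

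MUC2 encodes the gel-forming mucin that makes up most of the intestinal mucus layer. Its log2 signal was 4.77 and 4.43 in control, then 5.99 and 6.02 in p53 on, then 5.10 and 5.08 in recovery, for experiments 1 and 2. Both p53 on values lay above all 4 others, and both recovery values lay between the other groups. The rise in p53 on was 1.40 ± 0.21 log2 units, or 2.65-fold, with a 95% interval of 0.92 to 1.89. Its adjusted p in limma was 0.0362, or 0.00281 with the block. Without the block the call held with the mean of the probe sets (adjusted p = 0.0117), no dim filter (0.0469) and quantile normalization (0.0315). The rise was 1.22 in experiment 1 and 1.59 in experiment 2. Recovery differed from p53 on by -0.91 ± 0.21, which was not called without the block (adjusted p = 0.134) and was called with it (adjusted p = 0.0217). It was also called without the block when the mean of the probe sets was used (-1.10, adjusted p = 0.0431), and it was not called with the block when no dim filter was set (adjusted p = 0.0577). The difference was -0.88 and -0.94 in the experiments. Recovery remained 0.49 ± 0.21 above control, by 0.34 and 0.65 in the experiments, a difference that was not called (adjusted p = 0.935, or 0.298 with the block). The comparisons share the arrays of p53 on and of control, so these values are not independent of each other. The call of the rise was lost when only the 4 arrays compared were fitted (adjusted p = 0.0871) and when any 1 of the 6 arrays was left out (adjusted p between 0.0871 and 0.25), while the rise itself stayed between 1.24 and 1.57.

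The MUC2 rise was spread over most of the gene's 51 probe sets, which read different parts of the transcript. In p53 on, 44 of them were higher in both experiments and 1 was lower in both. Among all 224320 probe sets with a single symbol, 29.1% were higher in both experiments. More than 1 log2 unit was gained in both experiments by 28 of the 51, against 2.41% of all probe sets. Differences of single probe sets ran from -0.38 to 3.53, with a median of 1.49. In recovery, 41 were below p53 on in both experiments and 3 were above. Against control, 23 were still higher in both experiments in recovery and 8 were lower. Probe sets of a gene measure the same RNA, so these counts describe the gene and are not replicates.

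SPDEF, the ETS-family transcription factor of goblet cell maturation, moved the opposite way. Its log2 signal was 7.48 and 7.54 in control, then 5.97 and 6.32 in p53 on, then 7.18 and 7.54 in recovery. Both p53 on values lay below all 4 others, and the recovery values overlapped those of control. The fall in p53 on was -1.36 ± 0.23 log2 units, so that control was 2.57-fold higher, with a 95% interval of -1.90 to -0.82 (limma, adjusted p = 0.0491, or 0.00296 with the block). It was -1.51 in experiment 1 and -1.21 in experiment 2. Recovery lay 1.21 ± 0.23 above p53 on, by 1.21 and 1.22 in the experiments, which the block called (adjusted p = 0.00731) and the fit without it did not (adjusted p = 0.0942). Recovery and control differed by -0.15 ± 0.23, with a 95% interval of -0.69 to 0.40 (adjusted p = 0.999).

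The SPDEF call without the block sat close to the threshold. The adjusted p was 0.0632 with the mean of its probe sets, 0.0623 with no filter on dim genes, 0.0538 after quantile normalization, 0.0508 with only the brighter probe sets and 0.0902 with only the groups compared. Without any 1 of the 6 arrays it lay between 0.0902 and 0.275, with a difference of -1.54 to -1.19 log2 units. Of its 6 probe sets, 4 were lower in both experiments in p53 on, 3 of these by more than 1 log2 unit. The other 2 differed by -0.22 and -0.12 and had opposite signs in the experiments. In recovery, 5 of the 6 were above p53 on in both experiments.

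ATOH1, the basic helix-loop-helix factor that starts the secretory fate, was measured by 1 probe set. It read 3.93 and 4.42 in control, then 4.09 and 4.34 in p53 on, then 4.21 and 4.59 in recovery. The groups overlapped in every comparison. P53 on differed from control by 0.04 ± 0.26 log2 units, with a 95% interval of -0.57 to 0.64, and recovery from p53 on by 0.19 ± 0.26 (adjusted p = 0.972 and 0.879 in limma). The data therefore leave room for a change of either sign within those limits.

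**Figure D2:**
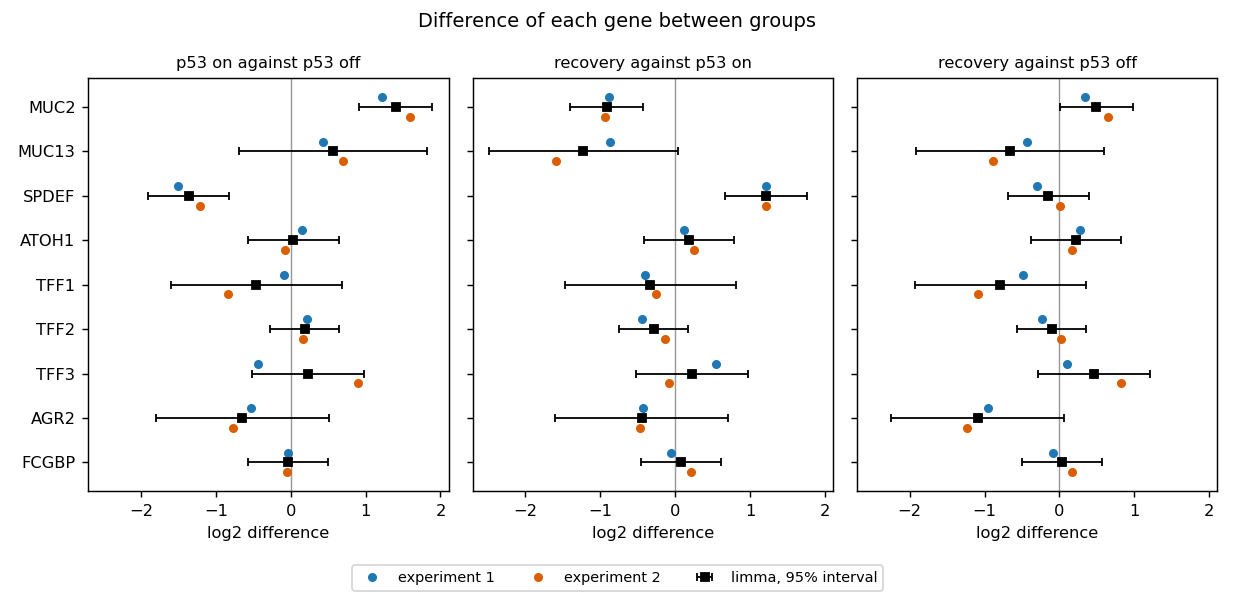
Log2 difference between groups for the 9 measured genes, with limma's estimate and 95% interval from the fit without the replicate block in black and the difference within each experiment as coloured points. The intervals of MUC2 and SPDEF lie on opposite sides of 0 in p53 on against p53 off and change sides in recovery against p53 on.

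MUC13 encodes a mucin anchored in the apical membrane of intestinal epithelial cells. It read 5.97 and 7.07 in control, then 6.40 and 7.76 in p53 on, then 5.53 and 6.18 in recovery. In each experiment p53 on was highest and recovery lowest, but experiment 2 lay above experiment 1 by 0.64 to 1.37 in every group. P53 on was 0.57 ± 0.53 above control (adjusted p = 0.707, or 0.12 with the block), by 0.43 and 0.70 in the experiments. With the mean of its probe sets and the block, the rise was 0.55 and was called (adjusted p = 0.0229). Recovery was -1.23 ± 0.53 against p53 on, or -0.86 and -1.59 in the experiments, and this was called only with the block (adjusted p = 0.0126, against 0.421 without it). Without the block, leaving out 1 array gave -1.91 (without p53 on of experiment 1) to -0.54 (without p53 on of experiment 2). Such a fit is unbalanced between the experiments, so this range includes their level gap. All 12 probe sets of MUC13 were lower in recovery than in p53 on in both experiments, and 11 were higher in p53 on than in control in both. Against control, recovery differed by -0.66 ± 0.53 (adjusted p = 0.999, or 0.231 with the block).

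AGR2, the endoplasmic reticulum disulphide isomerase needed to fold MUC2, read 7.10 and 6.31 in control, then 6.57 and 5.54 in p53 on, then 6.15 and 5.08 in recovery. Each experiment stepped down from control to p53 on and again to recovery. P53 on differed from control by -0.65 ± 0.49 without the block (adjusted p = 0.616), or by -0.53 and -0.77 in the experiments, and with the block the standard error was 0.17 and the adjusted p 0.0466. That call was lost with quantile normalization and the block (adjusted p = 0.0518) and with no dim filter and the block (adjusted p = 0.0940). It held with the mean of the probe sets and the block (adjusted p = 0.00855). Leaving out 1 array without the block moved the difference to between -1.16 (without p53 on of experiment 1) and -0.13 (without p53 on of experiment 2). Such a fit is unbalanced between the experiments, so this range includes their level gap, which was -1.03 in p53 on. Recovery differed from p53 on by -0.45 ± 0.49 (adjusted p = 0.83, or 0.172 with the block). Recovery differed from control by -1.09 ± 0.49, or -0.95 and -1.23 in the experiments, and the block called it (adjusted p = 0.0413, against 0.954 without it). The block also called it after quantile normalization (adjusted p = 0.0440) and with the mean (0.0129), though not with no dim filter (adjusted p = 0.119). Leaving out 1 array without the block gave -1.63 (without recovery of experiment 1) to -0.56 (without recovery of experiment 2). This range again includes the gap between the experiments. In the means, AGR2 did not move back toward control at 6 h in these arrays, where MUC2 and SPDEF did. None of these steps was called without the block, where the 95% interval for AGR2, -1.60 to 0.71, leaves room for a return. With the block that interval was -0.84 to -0.05, and the step was still not called (adjusted p = 0.172). The genes were not tested against each other. Of its 10 probe sets, 9 were lower in p53 on than in control in both experiments, and 8 were lower in recovery than in control.

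**Figure D3:**
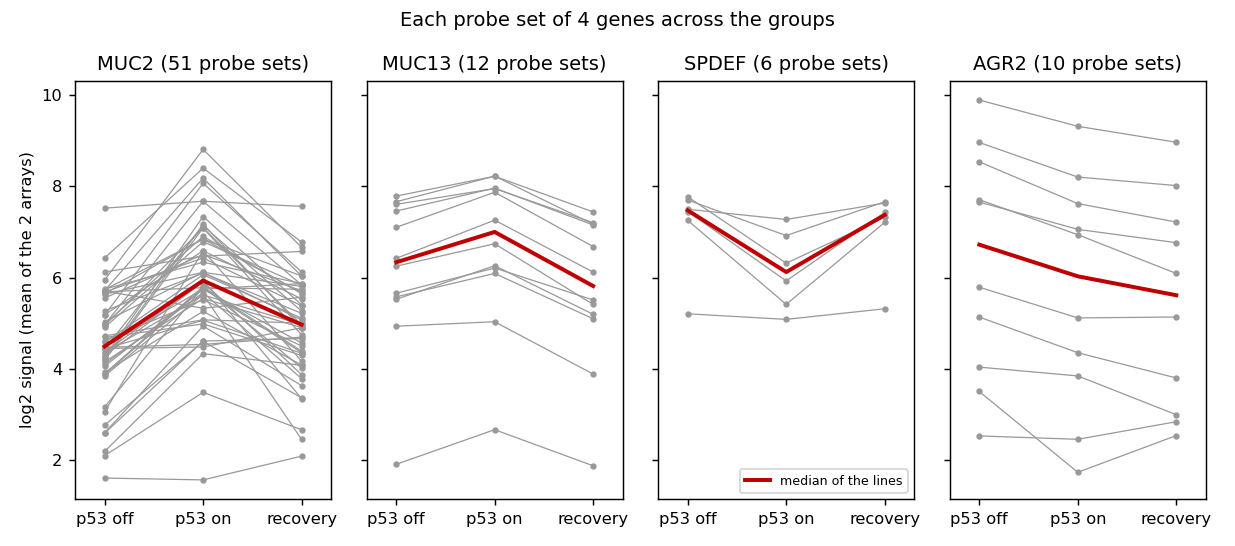
Log2 signal of each probe set of MUC2, MUC13, SPDEF and AGR2 by group, as the mean of 2 arrays, with the median of the lines in red. Most of the 51 MUC2 lines peak in p53 on, the 12 MUC13 lines drop in recovery, the SPDEF lines dip in p53 on, and most of the 10 AGR2 lines run downward.

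The trefoil factors are small secreted peptides that protect and repair the mucosa, and their genes lie next to each other on chromosome 21. None was called in any comparison, with or without the block. TFF1 read 5.59 and 5.13 in control, then 5.50 and 4.30 in p53 on, then 5.10 and 4.04 in recovery. Recovery differed from control by -0.49 and -1.09 in the experiments, without overlap (-0.79 ± 0.48, adjusted p = 0.996, or 0.174 with the block). TFF3, the main intestinal trefoil factor, read 5.48 and 4.70 in control, then 5.04 and 5.61 in p53 on, then 5.58 and 5.52 in recovery. The experiments disagreed on its direction in p53 on, with -0.44 in experiment 1 and 0.90 in experiment 2 (0.23 ± 0.32, adjusted p = 0.813). TFF2, a trefoil factor better known from the stomach, stayed between 3.59 and 4.03 on all 6 arrays, close to the dim filter. With 3 to 5 probe sets each, these genes rest on few measurements, and their 95% intervals in p53 on against control together spanned -1.60 to 0.98.

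FCGBP, a large mucus protein that binds to the MUC2 network, read 4.35 and 4.52 in control, then 4.32 and 4.47 in p53 on, then 4.26 and 4.69 in recovery. The groups overlapped, and p53 on differed from control by -0.04 ± 0.23 (95% interval -0.58 to 0.49, adjusted p = 0.963). Its 20 probe sets did not move as one. In p53 on, 6 were higher and 4 lower in both experiments, and their differences ran from -2.68 to 1.88 around a median of 0.06. The sign of the small gene-level difference turned to 0.05 when the mean of the probe sets was used.

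Recovery against p53 on gave 0 calls among the 9 genes in limma without the block, where 0.428% of all genes tested were called. At an unadjusted p under 0.05 there were 2, MUC2 and SPDEF, against 12.3% of all genes. With the block there were 3, MUC2, MUC13 and SPDEF, against 7.24%. Recovery against control likewise gave 0 without the block (0.0285% of all genes), 1 at an unadjusted p under 0.05, MUC2 (5.32%), and 1 with the block, AGR2 (0.599%). The median difference of the 9 genes was 0.04 in p53 on against control, -0.29 in recovery against p53 on and -0.10 in recovery against control, beside 0.02, 0.02 and 0.03 for all genes tested. The groups did not overlap for 3 of the 9 genes in p53 on against control, 4 in recovery against p53 on and 4 in recovery against control, where the shares over all genes were 43.2%, 39.5% and 35%. The sign was the same in both experiments for 7, 7 and 6 of the 9, against 65.1%, 66.2% and 61% of all genes. By these counts without overlap and of matching signs the 9 genes were close to the background, so the results rest on single genes.

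The experiments themselves differed in the level of several of these genes. Averaged over the 3 groups, MUC13 was 1.04 log2 units higher in experiment 2 than in experiment 1, and AGR2 and TFF1 were lower, with differences of -0.97 and -0.91. For these 3 genes that gap had the same sign in all 3 groups and was larger than the difference between p53 on and control. MUC2 and SPDEF differed between the experiments by -0.11 and 0.26 on average. What differed between the experiments is not given in the labels.

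Genes around the same pathway were described from lists of other mucins, mucin O-glycosylation enzymes, other goblet granule and secretion genes, and Notch and secretory lineage control. Without the block, p53 on against control gave 1 call among 25 tested O-glycosylation genes, beside 1.48% of all genes. The other lists gave 0 among their 7, 12 and 23 tested genes. That gene, GALNT11, was the only one of these lists called without the block in any comparison. It encodes an enzyme that attaches the first sugar of O-linked chains, and it read 5.89 and 5.70 in control, then 7.49 and 7.32 in p53 on, then 6.42 and 6.33 in recovery. All p53 on values lay above the others, and the rise was 1.62 ± 0.20 log2 units (limma, adjusted p = 0.02, or 0.00126 with the block). Without any 1 of the 6 arrays the adjusted p was between 0.0561 and 0.217. Recovery differed from p53 on by -1.03 ± 0.20 (adjusted p = 0.0963, or 0.0106 with the block).

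Among 14 other mucins, 7 were tested, and the dim filter left out MUC7, MUC12, MUC15, MUC17, MUC19 and MUC21, while MUC3B had no value. In p53 on against control 0 were called without the block, 2 of the 7 had an unadjusted p under 0.05, and 1 was called with it, beside 1.48%, 15.4% and 11.5% of all genes. That gene was MUC1, a membrane mucin, at 4.55 and 4.68 in control, then 5.24 and 5.54 in p53 on, then 4.98 and 5.38 in recovery (0.77 ± 0.23, adjusted p = 0.173, or 0.0242 with the block). The list's median was 0.35, but -0.01 in experiment 1 and 0.62 in experiment 2. In recovery against p53 on the median was -0.21 with 0 called in either fit, and the smallest p was that of MUC4, at -0.33 ± 0.20 (adjusted p = 0.603).

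Of 27 O-glycosylation genes, 25 were tested, with a median of -0.01 in p53 on against control. The block called 3 of the 25, a share near the 11.5% of all genes, namely GALNT11, GALNT5 and GCNT1. GALNT5, another initiating transferase, differed by 1.12 ± 0.28 (adjusted p = 0.12, or 0.0224 with the block), and GCNT1, which branches the chains, by -0.64 ± 0.44 (adjusted p = 0.573, or 0.0429 with the block). In recovery against p53 on, GCNT1 differed by 0.76 ± 0.44 (adjusted p = 0.577, or 0.0325 with the block). GCNT1 and GALNT11 were the 2 of the 25 that the block called there, beside 7.24% of all genes. GALNT11 and GALNT5 had the same order of groups as MUC2 in both experiments, with p53 on highest and recovery between. So did the mucin genes MUC1 and MUC20, while the other tested mucins of the list, MUC3A, MUC4, MUC5B, MUC6 and MUC16, did not. Genes of other lists, such as NOTCH2 and the keratin gene KRT19, had that order too. The share of all genes with that order was not counted.

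Of 20 other goblet granule and secretion genes, 12 were tested. CLCA1, ZG16, RETNLB, ITLN1, REP15, AGR3, CLCA4 and HEPACAM2, the first of them textbook goblet granule genes, were under the dim filter. The block called SYTL4, a regulator of granule docking, in p53 on against control (-0.84 ± 0.24, adjusted p = 0.163, or 0.0385 with the block), and no other. The list's median was 0.08. Without the block 0 of the 12 were called and 2 had an unadjusted p under 0.05, where 15.4% of all genes did, and the 1 call with the block stands beside 11.5%.

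Of 26 genes of Notch signalling and lineage control, 23 were tested. The block called 2 of these, beside 11.5% of all genes, in p53 on against control. They were the receptor gene NOTCH1 (0.91 ± 0.22, adjusted p = 0.106, or 0.0145 with the block) and the Notch ligand gene JAG2 (0.82 ± 0.21, adjusted p = 0.12, or 0.0198 with the block). NOTCH1 read 6.29 and 5.96 in control, then 7.16 and 6.91 in p53 on, then 5.85 and 5.85 in recovery. In recovery against p53 on it differed by -1.19 ± 0.22 (adjusted p = 0.0868, or 0.00794 with the block). The forkhead factor gene FOXA1 and the epithelial ETS factor gene ELF3 differed by -0.77 and -0.87 there (adjusted p = 0.288 and 0.27, or 0.0414 and 0.0402 with the block). With NOTCH1 they were the 3 of the 23 that the block called there, beside 7.24% of all genes. In recovery against control 0 genes of these 4 lists were called in either fit. Without the block their smallest adjusted p there was that of B4GALNT2, at 0.843. An unadjusted p under 0.05 was found for 2 of 25 O-glycosylation genes, 1 of 7 other mucins and 1 of 12 granule genes. It was found for 0 of the 23 Notch and lineage genes and for 5.32% of all genes.

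**Figure D4:**
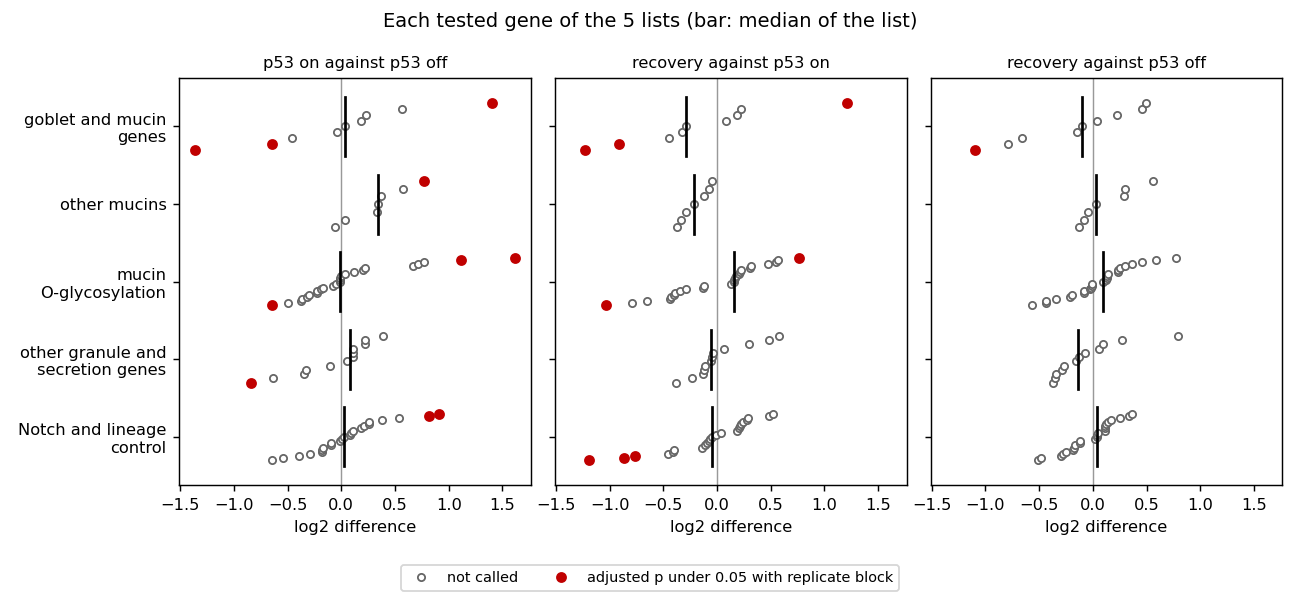
Log2 differences of each tested gene in the 5 lists for the 3 comparisons, with genes called under the replicate block in red and the median of each list as a black bar. The medians of the lists lie between -0.29 and 0.35, while single genes reach 1.62 and -1.36.

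Markers of other cell types were set beside these values as sums of linear signal over each list. All 5 epithelial markers passed the dim filter, and their sum was 8096 to 12952 in control, 12793 to 16022 in p53 on and 12919 to 14654 in recovery. In p53 on against control the keratin genes KRT19, KRT8 and KRT18 differed by 1.29, 0.56 and 0.40, and EPCAM and CDH1 by -0.17 and -0.06. Of these 5 epithelial markers KRT19 alone was called, and with the block only (adjusted p = 0.00322, against 0.317 without it). Of the 9 measured goblet and mucin genes the sum was 540 to 548 in control, 437 to 535 in p53 on and 429 to 452 in recovery. Absorptive cell markers, 8 of 12 above the filter, overlapped between groups at 757 to 1237, 856 to 1456 and 926 to 1484. Tuft cell markers, 3 of 4 above it, were 69.4 to 78.7 in control, 89.8 to 97.3 in p53 on and 66.1 to 83.4 in recovery, and enteroendocrine markers, 3 of 8, were 83.5 to 111, 98.2 to 105 and 97.2 to 113. Of the tuft cell markers POU2F3 differed by 0.83 in p53 on, and TRPM5 and AVIL by -0.01 and 0.03. The block alone called POU2F3 there, where it called 11.5% of all genes. The absorptive marker FABP1 read 2.82 and 3.36 in control, 3.36 and 3.37 in p53 on, then 4.82 and 4.49 in recovery. It had the largest rise of its list in recovery, 1.29 against p53 on and 1.57 against control. The block called 1 of the 8 absorptive markers in each, beside 7.24% and 0.599% of all genes. Paneth cell markers (2 of 5), fibroblast markers (4 of 6) and leukocyte markers (3 of the 5 measured) completed the check, and leukocyte sums were 146 to 149, 157 to 189 and 169 to 170. The part of these shifts in the results was not tested. In bulk RNA, fewer cells of a type and less RNA per cell cannot be told apart.

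Across the 6 arrays, the genes most like MUC2 among 14025 others were STAT6, ZNF211 and TMEM175, with Pearson's r of 0.999, 0.998 and 0.997. STAT6, a transcription factor of cytokine signalling, read 7.15 and 6.95 in control, then 7.87 and 7.92 in p53 on, then 7.36 and 7.30 in recovery. The genes most like SPDEF were FKBP4, LIMCH1 and LIG3, with r of 0.997, 0.996 and 0.995. FKBP4, a cochaperone of HSP90, read 9.63 and 9.67, then 8.31 and 8.47, then 9.36 and 9.69. These r values are the highest of many over few arrays that share 3 conditions and 2 experiments, and they describe likeness of pattern only.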

How the data were processed

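Total RNA (100 ng, labelled with a whole-transcript kit per the labels) from each sample was hybridised to 1 Affymetrix Human Gene 1.0 ST array, 6 in all. The authors deposited 1 log2 value per exon-level probe set and array, the scale being read from the values, which run from -0.85 to 13.14. How they were background-corrected and normalized is not given in the sources used here. Column medians lay between 5.24 and 5.31, so no scaling was applied. Of 257430 probe sets, 224320 had 1 symbol in GEO's platform annotation and were used, 10159 had several and 22951 none. Gene values were medians of probe sets, and the lowest 25% of genes by mean were left out. Precision is limited by the number of arrays.

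The tests used limma 3.58.1 (R 4.3.3) over all 6 arrays with 3 groups as 1 factor, with Benjamini-Hochberg adjustment over all genes. An exact permutation test of 2 arrays against 2 cannot go below p = 0.333 (two-sided). The experiment number was taken to pair the samples, because the labels name it as a shared experiment; arrays of the same number deviated together from their group means (r across genes of 0.496, 0.551 and 0.63), and the fit with it as a replicate block stands beside the main one. Alternatives were other gene summaries, filters, normalization, sample sets and leaving out each array. Named genes were all measured members, the genes of the context lists called in either fit or else with the smallest p, the 3 nearest in pattern to each member called without the block, and CDKN1A as a check of the labels. The members and lists were chosen with earlier results of these data known. Promoter sequences came from a RefSeq table (GRCh38.p14).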

Additional observations from a re-analysis of the deposited data

How the results depend on the processing

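With 2 arrays per group, calls without the replicate block rested on all 6 arrays. Counts of called genes among the 9 are followed in parentheses by the share of all genes called in that setting. In p53 on against control the count was 2 (1.48%), and 3 with the replicate block (11.5%). It was 2 with quantile normalization and the block (11.2%) and 2 with no dim filter and the block (4.78%). It was 1 with the mean of probe sets (3.41%), with no dim filter (0.604%), after quantile normalization (1.38%) or with only probe sets above the dim value (1.12%). With the mean and the block it was 4 (18.9%), namely MUC2, MUC13, SPDEF and AGR2, and with only the groups compared 0 (0.356%). Over all genes tested, 208 were called, 1607 with the block, 478 with the mean and 50 with only the groups compared. In recovery against p53 on the members' count was 0 (0.428%), and 3 with the block alone (7.24%). It was also 3 with quantile normalization and the block (7.17%) or with the mean and the block (14%). It was 2 with the block and no dim filter (2.2%), and 1 with the mean (1.3%). In recovery against control it was 0 (0.0285%), and 1 with the block alone (0.599%). It was also 1 with quantile normalization and the block (0.542%) or with the mean and the block (2.33%).

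The median difference in p53 on against control moved from 0.04 to 0.053 with the mean, blocked or not. It was 0.23 with the lowest 50% of genes left out, where 5 of the 9 genes were tested, and 0.14 with probe sets above the dim value, where ATOH1 dropped out. With the mean it was -0.080 in recovery against p53 on and 0.094 in recovery against control, blocked or not. Without each replicate it ranged from -0.13 to 0.13 in p53 on against control and from -0.35 to 0.0040 in recovery against p53 on.

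FCGBP in p53 on against control was 0.053 with the mean, blocked or not, and 0.091 with probe sets above the dim value. TFF3 in recovery against p53 on was -0.080 with the mean, blocked or not, and TFF2 was 0.031 with probe sets above the dim value. TFF2 in recovery against control was 0.14 with the mean, blocked or not, and 0.22 with probe sets above the dim value. Without each replicate, p53 on against control ranged from -0.21 to 0.28 for ATOH1, -0.13 to 0.043 for FCGBP, -0.12 to 1.25 for MUC13, -1.06 to 0.14 for TFF1 and -0.16 to 0.62 for TFF3. Recovery against p53 on ranged from -0.98 to 0.091 for AGR2, -0.00099 to 0.37 for ATOH1, -0.13 to 0.29 for FCGBP, -0.93 to 0.27 for TFF1 and -0.056 to 0.51 for TFF3. Recovery against control ranged from -0.018 to 0.46 for ATOH1, -0.17 to 0.25 for FCGBP and -0.33 to 0.032 for SPDEF. A fit with 1 array left out is unbalanced between the experiments. The ranges without each replicate therefore include the level gap between the experiments, which was 1.37 for MUC13 in p53 on. The cause of the other shifts was not tested.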
